A study of Rattus norvegicus with 8 samples.

Results

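Lef1 negative Cd3+ barcodes of the rat liver, proposed as effector-like T cells, were chosen from their counts. A barcode belonged to them if it held at least 500 UMIs (unique molecular identifiers, each standing for 1 captured RNA molecule), under 20% of them from mitochondrial (Mt-) symbols, and at least 3 summed UMIs of Cd3d, Cd3e and Cd3g, called Cd3 UMIs from here on. It also had no UMI of Lef1, Ncr1, Cd79a or Siglech and at most 2 summed UMIs of the Ly49 receptor symbols Klra22, Klra5, Ly49s6, Ly49i3 and Ly49s5. The rule kept 1191 of the 32170 barcodes that passed the UMI and Mt- limits (3.70%), and 825 more met all of it apart from holding a Lef1 UMI and are called Lef1 positive Cd3+ barcodes.

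Immune cells were purified on a density gradient from livers of 4 male Han Wistar rats and profiled by 10x Genomics Chromium 3' single-cell RNA sequencing. The negative control animals NC1 and NC2 were fed the choline-sufficient CSAA diet, and the positive control animals PC1 and PC2 the choline-deficient CDAA diet, which is used to produce steatohepatitis. Each animal gave 1 library from fresh cells and 1 from cells cryopreserved in DMSO for 3 weeks, 8 libraries in all, so preservation and the day of processing cannot be told apart. The libraries held 18338700 to 26471843 UMIs. All libraries of a diet come from 2 animals, and p-values measure the spread between these animals only.

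Cd3d, Cd3e and Cd3g encode the invariant chains that carry the signal of the T cell receptor into the cell. Lef1 encodes a transcription factor that is high in naive T cells and is lost as they turn into effector and memory cells. Effector T cells store granzymes and perforin in granules and release chemokines, and the liver is known for a large resident pool of them, rich in Cd8 cells.

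The fresh libraries of NC1, NC2, PC1 and PC2 held 261, 186, 91 and 49 members. The preserved libraries held 226, 236, 82 and 60 in the same order. Median depth was 3979, 4103.5, 5089 and 5150 UMIs per member in the fresh libraries of NC1, NC2, PC1 and PC2, and 3192, 3671.5, 4088 and 4266 UMIs in the preserved ones, lower after preservation in 4 of 4 animals. Every one of the 28 pairs of libraries shared 10 to 29 barcode sequences, and none of the members' barcodes (0) was among them. A doublet score (Scrublet) placed 49 of the 1191 members among the highest scores of their libraries, 28 of them with 5 or more Cd3 UMIs.

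The number of Cd3 UMIs split the members. In the 685 with at least 5 Cd3 UMIs (57.5%), the other genes of the T cell receptor list, such as Lck, the kinase that starts receptor signalling, had a median of 3.81 UMIs per 1000, and the macrophage and monocyte lists together had 4.14. In the 506 with 3 or 4 Cd3 UMIs (42.5%), the same medians were 1.21 and 10.7. A Lck UMI was found in 86.6% of the first set, in 52.0% of the second and in 28.2% of the 588 B cell barcodes (at least 3 Cd79a UMIs, no Cd3 UMI), at median depths of 3840, 4072 and 2780 UMIs. For the 3189 macrophage barcodes (at least 3 Csf1r UMIs, no Cd3 UMI) the list medians were 0.725 and 17.4, and for the 825 Lef1 positive Cd3+ barcodes 3.22 and 3.50. The members with 3 or 4 Cd3 UMIs thus held T cell genes near the B cell level of 1.23. Their myeloid genes lay between the T cell and macrophage levels, and both values go against their label. Those with at least 5 held T cell genes near the level of the Lef1 positive barcodes. The latter were taken at 3 or more Cd3 UMIs, and 702 of the 825 reached 5. Just inside the limit, the 358 members with exactly 3 Cd3 UMIs had medians of 1.17 and 11.4, and just outside it the 954 barcodes with 2 had 0.918 and 14.3. Among barcodes with at least 3 Cd79a UMIs, 5.47% to 31.2% per library also reached 3 Cd3 UMIs. The range was 7.06% to 33.6% at 3 or more Csf1r UMIs, 9.17% to 36.9% with an Ncr1 UMI and 29.8% to 80.3% at 3 or more Siglech UMIs. For the last 2 gates, 4.08% to 21.3% and 10.1% to 58.2% reached 5 Cd3 UMIs. The 3482 natural killer barcodes (an Ncr1 UMI, no Cd3 UMI) had list medians of 2.43 and 5.45, and 72.0% held a Lck UMI. The main results are given for all 1191, with values for the 685 where stated.

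**Figure D1:**
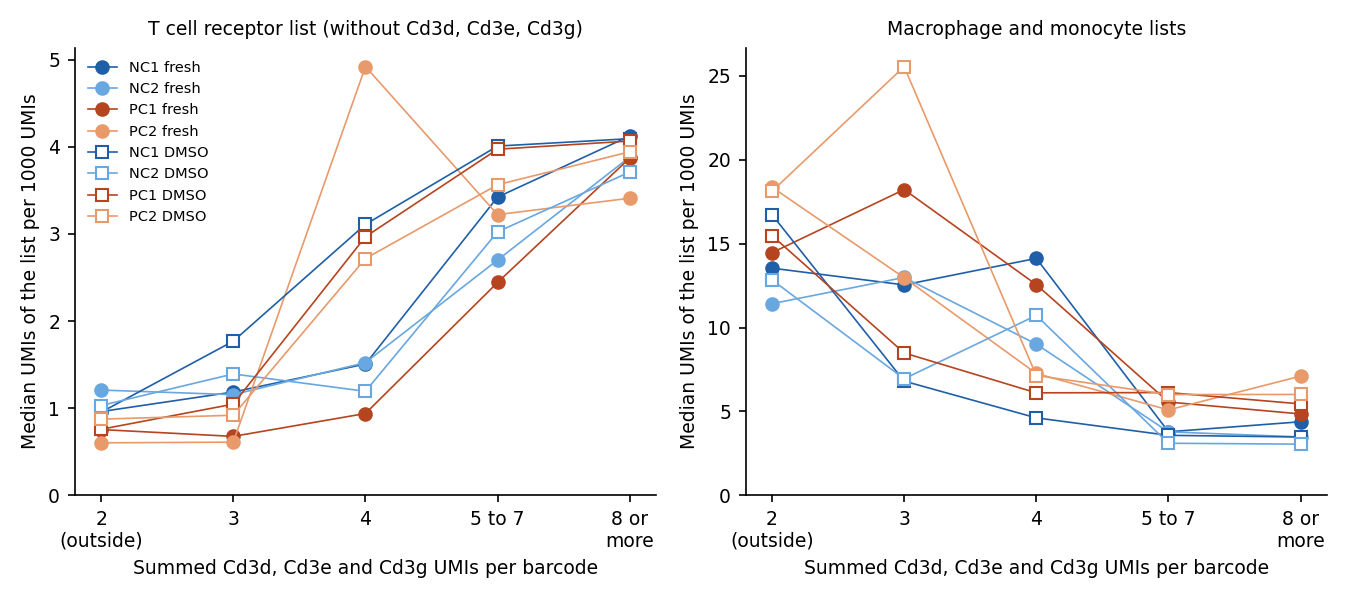
Median UMIs per 1000 of the T cell receptor list without the Cd3 genes (left) and of the macrophage and monocyte lists (right) against Cd3 UMIs per barcode, with 1 line per library, and 2 Cd3 UMIs lying outside the rule. T cell genes rose and myeloid genes fell towards the barcodes with at least 5 Cd3 UMIs in the libraries shown, and the fresh PC2 point at 4 Cd3 UMIs rests on 1 barcode.

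Sums of marker lists, in CPM (UMIs scaled to a common total of the summed barcodes, averaged over the 8 libraries), placed other cell types beside these values. The 5 proposed markers Cd3e, Cd3d, Sit1, Icos and Cish summed to 1211 CPM in all members and to 1487 CPM in the Lef1 positive Cd3+ barcodes. They summed to 1817 CPM in members with at least 5 Cd3 UMIs and 452 in those with 3 or 4. That order is favoured by the split itself, since Cd3e and Cd3d are counted in it. The natural killer list summed to 9510 CPM in all members and 7341 CPM in the 685. Its defining gene Ncr1 was at 0 by the rule, and Tyrobp was its most abundant gene, at 4179 CPM in all members. This list summed to 14419 CPM in the macrophage barcodes and 21156 CPM in the natural killer barcodes. The monocyte list summed to 10346 and 5622 CPM, the conventional dendritic cell list to 11671 and 8289 (Cd74 being its most abundant gene), the plasmacytoid one to 1193 and 1042, the macrophage and Kupffer cell list to 1948 and 1144, and the B cell list to 179 and 159 with Cd79a at 0 by the rule. The hepatocyte list reached 10.4 CPM in all members. In the other 30979 barcodes the natural killer, monocyte and conventional dendritic cell lists summed to 14264, 9562 and 13259 CPM. There the plasmacytoid, macrophage and Kupffer cell, and B cell lists summed to 2338, 1847 and 454 CPM. The part of these other transcripts in the results below was not tested, except where the 685 or the empty droplets (barcodes with 1 to 100 UMIs) give a value.

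Against the other 30979 barcodes, the members' leading genes were T cell genes, as the rule makes likely, and they are given as a description. Cd3e summed to 507 CPM in the members and 119 CPM in the rest. Sit1, an adaptor that dampens receptor signalling, stood at 111 and 29.7 CPM, and 35.0% of members held a Sit1 UMI against 22.1% of the B cell barcodes. Cish, a feedback inhibitor of cytokine signalling, stood at 63.0 and 16.6 CPM. Icos, a co-stimulatory receptor induced on activated T cells, stood at 58.0 and 16.1 CPM. Trat1, Bcl11b, Cd6 and Trbc2 also led, with Bcl11b, a factor that maintains T cell identity, at 38.1 against 11.3 CPM and Trbc2, a constant region of the receptor beta chain, at 349 against 137 CPM. Ctsw, a protease of cytotoxic lymphocytes, was the leading effector gene at 310 against 143 CPM. All of these were also found in empty droplets, for example Cd3e at 156 CPM and Ctsw at 148 CPM, at levels like those of the rest and well under the members. The effector lists taken whole lay the other way. The cytotoxic list summed to 5250 CPM in the members and 7401 CPM in the rest, and the effector cytokine and chemokine list to 8519 and 11009 CPM.

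Cd8 marks T cells that read class I antigens and Cd4 those that read class II. A Cd8a or Cd8b UMI without Cd4 was found in 897 members, Cd4 alone in 12, both in 53 and neither in 229. Cd8a is no clean marker here, since 45.1% of the B cell barcodes held a Cd8a UMI and its level in empty droplets, 463 CPM, was close to the 496 CPM of the members. Cd8b was sharper, with 33.1% of members positive against 9.01% of B cell barcodes, and 138 CPM against 73.3 CPM in empty droplets. The 3 co-receptor genes together summed to 647 CPM in the members and to 828 CPM in the natural killer barcodes. The Cd8 share that follows counts any Cd8a UMI, and the part of empty-droplet RNA in it was not tested. Among members with a co-receptor of only 1 kind, the Cd8 share was 98.8% ± 1.08 (SD, n = 4) in fresh and 98.3% ± 2.36 (SD, n = 4) in preserved libraries. The difference was -0.43 ± 1.41 percentage points (two-sided exact permutation of the signs of 4 animals, p = 0.75). In PC2 it was 0, so the smallest possible p of this test lies above 0.125.

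Members made up 5.65%, 4.50%, 2.21% and 1.17% of the fresh barcodes of NC1, NC2, PC1 and PC2. In the preserved libraries they made up 6.36%, 6.88%, 2.101% and 1.42%. Both NC animals lay above both PC animals in each condition, with no overlap of their exact binomial 95% intervals, the nearest being 3.89% to 5.18% in fresh NC2 and 1.78% to 2.70% in fresh PC1. At 5 or more Cd3 UMIs the order was the same, but the intervals of fresh NC2 (1.65% to 2.54%) and fresh PC1 (1.05% to 1.79%) overlapped. The intervals cover counting error only. The mean share was 5.08% ± 0.81 in NC and 1.69% ± 0.73 in PC among fresh libraries (SD, n = 2 each), 3.01 times higher in NC, and 6.62% ± 0.37 against 1.76% ± 0.48 among preserved ones, 3.76 times higher. With 2 animals a diet the two-sided exact permutation test gave p = 0.333 in both conditions, the smallest it can give, so the diet difference cannot reach a threshold of 0.05. A share says nothing of absolute numbers, since more of another cell type lowers it too.

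Among all barcodes the members' share was 3.38% ± 2.06 (SD, n = 4) in fresh and 4.19% ± 2.83 (SD, n = 4) in preserved libraries, and the paired difference was 0.81 ± 1.10 percentage points, higher in 3 of 4 animals (two-sided exact permutation, p = 0.25). NC2 moved most, from 4.50% to 6.88%, and PC1 fell slightly. With at least 5 Cd3 UMIs the difference was 0.67 ± 0.91 percentage points (exact permutation, p = 0.25), and with at least 8 it was 0.20, with 2 animals higher and 2 lower (exact permutation, p = 0.75). After thinning to 1000 UMIs it was 0.86 ± 0.83 percentage points, higher in 4 of 4 animals (exact permutation, p = 0.125, the smallest possible). Members were 63.3% ± 12.0 of all Cd3+ barcodes in fresh and 64.5% ± 8.50 in preserved libraries (SD, n = 4 each), a difference of 1.13 ± 3.84 percentage points (two-sided exact permutation, p = 0.875).

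**Figure D2:**
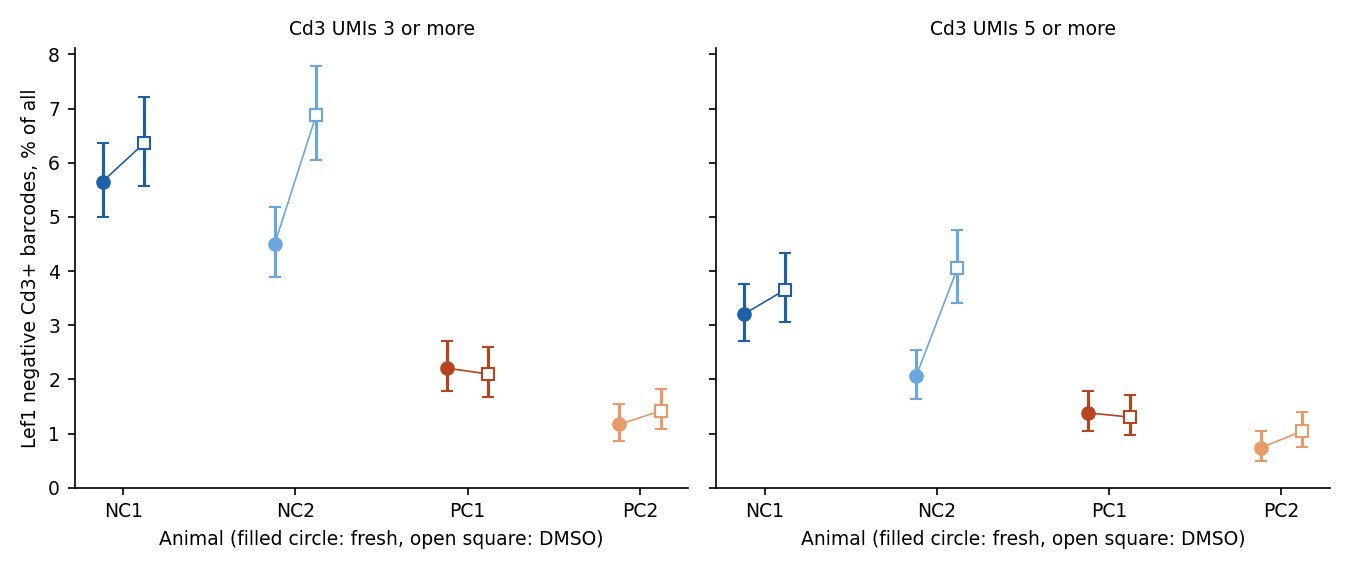
Lef1 negative Cd3+ barcodes as a percent of all barcodes passing the UMI and Mt- limits (vertical axis) in the fresh and DMSO library of each animal, for at least 3 (left) and at least 5 (right) Cd3 UMIs, with exact binomial 95% intervals as bars. Both NC animals sat above both PC animals in each condition, and fresh and preserved values of an animal were close except in NC2.

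Many Lef1 positive calls rested on few UMIs. Of the 2016 Cd3+ barcodes, 1191 had no Lef1 UMI, 426 had 1, 220 had 2 and 179 had 3 or more, so 51.6% of the Lef1 positive ones rested on a single UMI. In the other direction, 7.48% of B cell barcodes held a Lef1 UMI. The median depth of Lef1 negative barcodes was above that of Lef1 positive ones in 6 of 8 libraries. When each barcode was thinned to 1000 UMIs, which lowers its Lef1 and its Cd3 counts alike, the Lef1 negative share of Cd3+ barcodes was 83.1% in fresh and 86.7% in preserved libraries, a difference of 3.58 percentage points (two-sided exact permutation, p = 0.125, the smallest it can give).

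Lef1 negative and Lef1 positive barcodes were compared at 5 or more Cd3 UMIs (685 against 702), as a description, because the rule split them on a gene of the same cells. Of 4309 genes with at least 20 CPM, 244 (5.66%) were higher in the Lef1 negative sum in all 8 libraries and 136 (3.16%) were lower in all 8, and the median ratio was 1.06. The cytotoxic list stood higher, with 6 of 10 genes higher in all 8, none (0) lower in all 8 and a median ratio of 1.50. Gzmm, a granule protease, ranged from 915 to 1432 CPM in the Lef1 negative and from 548 to 846 CPM in the Lef1 positive sums, without overlap. Nkg7, a granule membrane protein, stood at 950 against 616 CPM on average and was higher in all 8 libraries although its ranges overlapped. Srgn, the granule proteoglycan, stood at 634 against 479 CPM, and Ctsw at 445 ± 131 against 216 ± 51.2 CPM (SD, n = 8). Gzma and the pore-forming Prf1 were higher in 6 of 8 libraries each, Prf1 at only 377 against 354 CPM. Faslg, the death ligand, at 83.2 against 32.2 CPM, was picked out after its values were seen.

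In the effector cytokine and chemokine list 3 of 5 genes were higher and 1, Cd40lg, lower in all 8 libraries. Ccl5, the most abundant chemokine here, ranged from 5184 to 11455 CPM in the Lef1 negative and from 1882 to 5898 CPM in the Lef1 positive sums, higher in all 8 libraries. The B cell barcodes held 4044 CPM of Ccl5, about the Lef1 positive level. Ccl3 and Ccl4 stood at 476 against 329 and 550 against 311 CPM. Cxcr3, a receptor that guides effector cells to inflamed tissue, stood at 145 ± 44.6 against 66.0 ± 26.2 CPM (SD, n = 8), whereas the receptor Cxcr4, at 38.2 against 41.1 CPM, was higher in only 3 of 8. The residency and homing list had 4 of 10 genes higher in all 8 libraries and a median ratio of 1.43.

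Some transcription factors and receptors of activated cells were also higher in the Lef1 negative sums. Hopx and Id2, factors of differentiated T cells, stood at 547 against 335 and 206 against 115 CPM, higher in all 8. The factor list had 3 of 7 genes higher in all 8 libraries and a median ratio of 1.63. Tnfrsf9 (4-1BB) and Tnfrsf4 (OX40), co-stimulatory receptors of recently activated T cells, stood at 81.6 ± 75.4 against 12.3 ± 12.8 and 65.9 ± 51.9 against 14.2 ± 18.2 CPM (SD, n = 8), higher in all 8 but with a wide spread. The co-stimulation and checkpoint list had 3 of 10 genes higher and 2 lower in all 8, and Icos and Lag3 were higher in only 5 of 8 and Cd69 in 4 of 8. Ccr6, a gene of the gamma delta and type 17 list, stood at 55.3 against 18.8 CPM, and that list summed to 105 CPM in the 685 and to 162 CPM in the B cell barcodes. The regulatory list, with 3 genes above the minimum, had a median ratio of 3.02 and 1 gene, Tnfrsf4, higher in all 8.

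Several genes were lower in the Lef1 negative sums. Cd27, a co-stimulatory receptor lost from late effector cells, ranged from 148 to 175 CPM against 181 to 347 CPM in the Lef1 positive sums, without overlap. Satb1, a chromatin organiser of early T cells, stood at 20.2 against 54.8 CPM and was lower in all 8 libraries. Cd40lg, the helper ligand, was likewise lower in all 8 at 61.5 against 123 CPM. The naive list had a median ratio of 0.71 over 5 genes with 1, Satb1, lower in all 8, while Cd27 and Cd40lg belong to the co-stimulation and checkpoint list. Genes of the T cell receptor list lay level, with 1 of 13 higher in all 8, none (0) lower in all 8 and a median ratio of 1.03. Lck stood at 526 against 535 CPM. Of the co-receptors, Cd8a stood at 590 against 570 CPM, higher in 4 of 8 libraries, and Cd8b at 196 against 138 CPM, higher in 7 of 8.

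**Figure D3:**
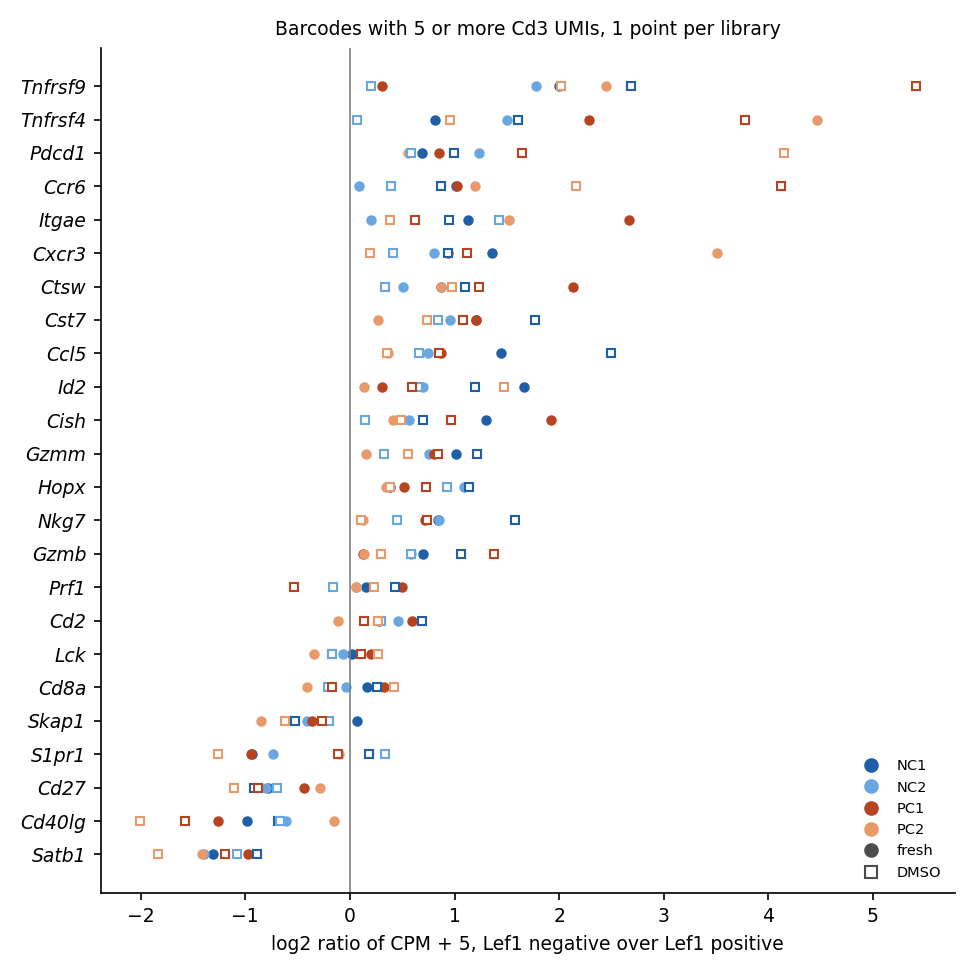
log2 ratio of CPM + 5 between Lef1 negative and Lef1 positive Cd3+ barcodes with at least 5 Cd3 UMIs (horizontal axis) for named genes (vertical axis), with 1 point per library. Tnfrsf9, Ctsw, Ccl5 and Gzmm lay right of 0 in all 8 libraries, Cd27, Cd40lg and Satb1 left of it in all 8, and Lck and Cd8a on both sides.

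After DMSO preservation the members carried far more RNA of immediate early genes, the transcription factors and feedback genes that cells switch on within minutes of a stimulus. Fos, a component of the AP-1 factor, stood at 107, 58.3, 33.7 and 29.8 CPM in the fresh sums of NC1, NC2, PC1 and PC2, and at 730, 1110, 736 and 916 CPM in the preserved ones. Every preserved value was above every fresh one. The log2 change was 3.85 ± 0.20 (SE; edgeR quasi-likelihood test with the animal as a block, adjusted p = 8e-12), in 4 of 4 animals. Jun, its partner, went from 36.0, 34.7, 43.8 and 23.2 CPM to 431, 653, 336 and 378 CPM, a log2 change of 3.75 ± 0.16 (edgeR, adjusted p = 1.5e-13). Fosb went from 33.5, 10.1, 6.74 and 9.94 CPM to 343, 969, 450 and 381 CPM, a log2 change of 4.92 ± 0.28 (edgeR, adjusted p = 3.8e-11). Neither gene overlapped between the conditions.

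Feedback genes of the same list rose too. Dusp1, a phosphatase that shuts off stress kinases, went from 118, 58.3, 26.9 and 16.6 CPM to 468, 565, 159 and 330 CPM, a log2 change of 2.75 ± 0.19 (edgeR, adjusted p = 1e-09). Ppp1r15a, which restores translation after stress, went from 47.8, 22.4, 30.3 and 16.6 CPM to 114, 126, 60.7 and 89.2 CPM, a log2 change of 1.75 ± 0.20 (edgeR, adjusted p = 1.2e-05). For both, the preserved values were all above the fresh ones. Junb rose by 1.42 ± 0.14, Zfp36, which destabilises cytokine messages, by 1.45 ± 0.17, and Klf6 by 1.41 ± 0.13 on the log2 scale (edgeR, adjusted p = 9.9e-07, 1.7e-05 and 3.5e-07). Btg2 rose by less than 2-fold (0.70 ± 0.11, edgeR, adjusted p = 0.00027).

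Dusp1 and Ppp1r15a are shown by sequence because their promoters held the cAMP response element TGACGTCA, a site of the CREB and ATF factors, which was searched for in the 250 bases before the start of each gene and reads the same on both strands. It was present in 2 of the 14 promoters available for the 22 genes raised at least 2-fold (14.3%). Among all 33469 promoters, 531 held it (1.59%). The 33469 take in genes not tested here, whereas a single promoter was used for each raised gene, and enrichment was not tested. The stretches, from RefSeq on build GRCr8, are Dusp1 at chr10:17184689-17184776 on the plus strand, with the site starting 124 bases before the gene start, and Ppp1r15a at chr1:105139615-105139702 on the minus strand, with the site 66 bases before it. They run 5′ to 3′ with the element in capitals, and a match is a description only. The counts themselves rest on an older rat build.
Dusp1: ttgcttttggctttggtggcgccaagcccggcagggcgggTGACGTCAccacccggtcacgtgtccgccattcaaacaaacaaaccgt
Ppp1r15a: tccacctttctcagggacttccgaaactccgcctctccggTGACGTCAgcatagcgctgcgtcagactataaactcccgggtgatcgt

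In all, 29 of 5171 genes tested were called (0.561%), meaning an adjusted p under 0.05 with a change of 2-fold or more, 22 higher (0.425%) and 7 lower (0.135%). At the adjusted p alone, 2.2% were called, 1.35% higher and 0.851% lower. Of the immediate early list, 9 of 22 tested genes passed the adjusted p, all of them higher, and 8 of these at least 2-fold, with a list median of 0.69 against 0.00 for all genes tested. With at least 5 Cd3 UMIs it was 9 of 19 higher and a median of 0.42, and 17 of 3369 genes (0.505%) were called, 14 of them among the 29. In these 685 the log2 changes were 4.27 for Fos, 5.88 for Fosb, 3.95 for Jun, 2.82 for Dusp1, 1.53 for Ppp1r15a, 1.78 for Junb, 1.48 for Zfp36 and 1.36 for Klf6, all past the adjusted p by edgeR. Fos, Fosb, Jun, Dusp1, Ppp1r15a and Klf6 were also higher in the preserved empty droplets. There Fos stood at 28.1 to 73.1 CPM in the fresh and 454 to 776 CPM in the preserved libraries. Jun stood at 373, 661, 216 and 326 CPM in the empty droplets of preserved NC1, NC2, PC1 and PC2. The members' Jun lay above that in NC1, PC1 and PC2 and just below it in NC2, at 431, 653, 336 and 378 CPM. The share of members with a Fos UMI went from 7.69% to 23.0% across fresh libraries to 78.0% to 93.3% across preserved ones. Klf6 stood above the empty droplets in the members, at 48.8 to 77.1 CPM against 26.7 to 38.0 CPM when fresh and at 98.6 to 217 CPM against 41.9 to 80.2 CPM when preserved.

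Of the effector genes, 2 chemokines rose and 2 granule genes fell. Ccl3, a chemokine that recruits monocytes and T cells, went from 393, 184, 261 and 176 CPM to 705, 1016, 711 and 1077 CPM, a log2 change of 1.82 ± 0.18 (edgeR, adjusted p = 9.9e-07). Ccl4, its close relative, went from 416, 253, 439 and 232 CPM to 680, 751, 597 and 770 CPM, a log2 change of 1.13 ± 0.14 (edgeR, adjusted p = 3.7e-05). Both were higher in every preserved library than in any fresh one, and Ccl3 in the empty droplets went from 252 to 347 CPM up to 866 to 1641 CPM. Empty-droplet Ccl4 went from 377, 374, 482 and 468 CPM to 586, 1407, 826 and 1301 CPM. The members lay below the empty droplets in 7 of 8 libraries for Ccl3 and in 6 of 8 for Ccl4. Gzma, a granule protease, stood at 857, 1590, 1120 and 709 CPM when fresh and at 305, 936, 647 and 681 CPM when preserved, lower in 4 of 4 animals though the groups overlapped, and fell by 0.74 ± 0.13 on the log2 scale (edgeR, adjusted p = 0.0019). Prf1 fell by 0.64 ± 0.15 on the log2 scale (edgeR, adjusted p = 0.02), and it was higher after preservation in PC2. These were the only 2 of 10 cytotoxic genes to pass, the list median being -0.05. The natural killer list counts Gzma and Prf1 too. The members' sum of it also fell, from 10108, 11946, 11072 and 9370 CPM to 7111, 8614, 9171 and 8692 CPM. Their macrophage and Kupffer cell list fell from 1514, 2696, 3028 and 2176 CPM to 1158, 1713, 1702 and 1600 CPM. In the 685 the natural killer list rose in PC2, and the macrophage list fell only in NC1. The part of these lists in the change was not tested. In the 685, Ccl3 and Ccl4 changed by 1.97 and 1.12, Gzma by -1.01 and Prf1 by -0.77, each past the adjusted p by edgeR. There the chemokine Xcl1 also passed, as lower by less than 2-fold, and the effector cytokine and chemokine list had a median of -0.07. Gzmm and Nkg7 did not pass, at 0.11 ± 0.10 and -0.05 ± 0.11, nor did Ccl5 at -0.19 ± 0.08.

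**Figure D4:**
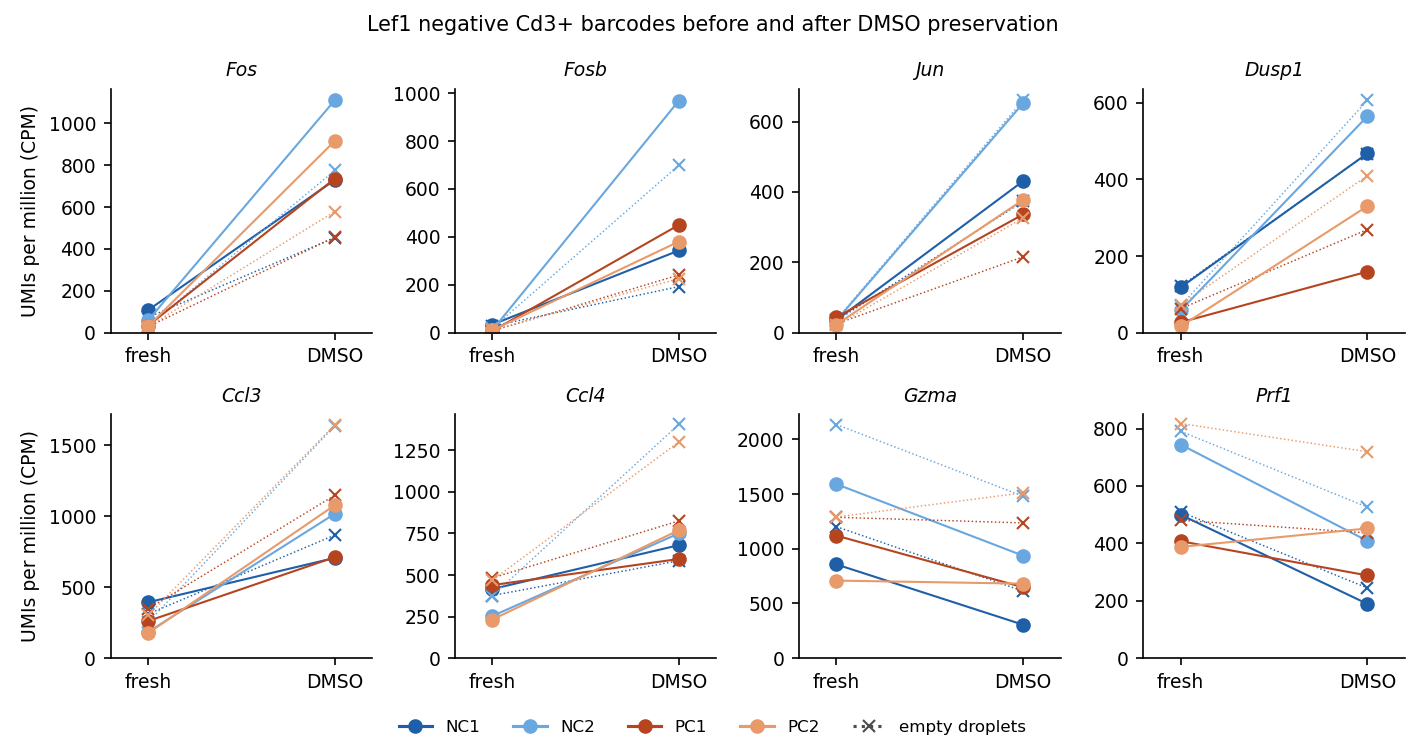
CPM of 8 genes (vertical axes) in the summed Lef1 negative Cd3+ barcodes of the fresh and DMSO library of each animal (circles and solid lines) and in empty droplets of the same libraries (crosses and dotted lines). Fos, Fosb, Jun, Dusp1, Ccl3 and Ccl4 were higher in the preserved library of all 4 animals, in members and in empty droplets, and Gzma was lower in the members of all 4.

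T cell genes otherwise moved little. Of the T cell receptor list, 2 of 13 passed the adjusted p, both higher, with a list median of 0.09. These were the adhesion receptors Cd6, which went from 71.2, 59.4, 64.0 and 39.7 CPM to 129, 80.4, 73.3 and 77.3 CPM with a log2 change of 0.68 ± 0.15 (edgeR, adjusted p = 0.015), and Cd2, with 0.42 ± 0.11 (edgeR, adjusted p = 0.039). Neither passed with at least 5 Cd3 UMIs (0.37 and 0.18). The T cell marker list, which holds Cd3g of the rule, also rose, from 2954, 2483, 2455 and 2146 CPM to 3278, 2800, 2506 and 2977 CPM. In members with at least 5 Cd3 UMIs it rose in NC1 and fell in NC2, PC1 and PC2. The natural killer and macrophage lists of all members fell, as given above, and the part of these shifts was not tested. Lck changed by 0.31 ± 0.12 and the proposed markers Sit1, Icos and Cish by 0.31 ± 0.14, 0.41 ± 0.23 and 0.01 ± 0.17, none of which passed.

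Other lists held few calls. Lag3, an inhibitory receptor, was the 1 gene of 10 to pass in the co-stimulation and checkpoint list (0.91 ± 0.18, edgeR, adjusted p = 0.0049), and it did not pass with at least 5 Cd3 UMIs (0.57). In the residency and homing list, Rgs1, which desensitises chemokine receptors, and Itgb7, an integrin chain, passed out of 11 (1.27 ± 0.25 and 0.49 ± 0.12, edgeR, adjusted p = 0.0049 and 0.035), and Itgb7 did not pass with at least 5 Cd3 UMIs (0.45, edgeR, adjusted p = 0.308), where the list median was -0.03. In the cell cycle list 3 of 6 genes were higher, Stmn1 by 0.74 ± 0.12, Pcna by 0.73 ± 0.14 and Tubb5 by 0.54 ± 0.10 (edgeR, adjusted p = 0.00091, 0.0036 and 0.0031), and none of the 3 passed at 5 or more Cd3 UMIs, where they changed by 0.77, 0.72 and 0.37, all 3 at an unadjusted p under 0.05 by edgeR. The chaperone Hspa5 was the 1 heat shock gene of 9 to pass (0.54 ± 0.11, edgeR, adjusted p = 0.0061). By edgeR none (0) of 12 interferon-stimulated genes, 10 cytokine receptor and feedback genes, 5 naive genes and 7 effector factors passed, with 1, 1, 2 and 2 at an unadjusted p under 0.05 (725 of all 5171 genes tested) and list medians of -0.03, -0.13, 0.24 and -0.14. The same held for 6 killer lectin receptors, 3 co-receptors, 3 regulatory genes and 2 type 17 genes, with 0, 2, 0 and 0 at an unadjusted p under 0.05. With at least 5 Cd3 UMIs the cytokine receptor and feedback list had a median of -0.47. There 4 of its 8 genes were lower at an unadjusted p under 0.05 by edgeR, and 0 passed the adjusted p.

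Among the remaining called genes were Ube2c and Racgap1, which act in cell division, at 1.79 ± 0.24 and 1.89 ± 0.38, and the chemokine Cxcl2, a myeloid gene, at 1.77 ± 0.24 (edgeR, adjusted p = 8.7e-05, 0.0049 and 7e-05). Ube2c missed the threshold at 5 or more Cd3 UMIs (1.37, edgeR, adjusted p = 0.0595), where Racgap1, Cxcl2, Cd300a, Erbin and Clec4a3 were too low to be tested. The most lowered gene was Mcpt8l3, a protease of the mast cell family, which stood at 252, 136, 70.7 and 19.9 CPM when fresh and at 32.3, 46.3, 32.9 and 17.8 CPM when preserved. It was lower in 4 of 4 animals with overlap between the groups, and fell by 1.91 ± 0.23 on the log2 scale (edgeR, adjusted p = 1.9e-05). The inhibitory receptor Cd300a fell by 1.36 ± 0.33, Erbin by 1.14 ± 0.30 and the lectin receptor Clec4a3 by 1.12 ± 0.25 on the log2 scale (edgeR, adjusted p = 0.023, 0.041 and 0.013).

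The preservation response of the members was tested against that of the other barcodes of the same libraries. By the same limits it differed for 11 of 10538 genes (0.104%), and for 43 (0.408%) at the adjusted p alone. Ccl4 was among the latter, with a rise in the members larger by 0.44 on the log2 scale than in the other barcodes (edgeR, adjusted p = 0.00012), though the empty droplets rose in all 4 animals too, as was Ube2c (0.86, edgeR, adjusted p = 0.0131). Fos rose less in the members, by -0.54, although steeply in both (edgeR, adjusted p = 0.0131). For Jun and Dusp1 the difference was -0.02 and 0.10 and did not pass. The 11 included the complement gene C1qc (-1.16), Lyve1 (1.28), Cxcl1 (1.54) and Cxcl2 (1.13). With at least 5 Cd3 UMIs, 3 genes were called (0.0284%). Between Lef1 negative and Lef1 positive barcodes, 3 of 5114 genes differed (0.0587%): Fabp4, Ccl2 and Egr2. With at least 5 Cd3 UMIs in both, none (0, or 0%, of 3908) was called by edgeR at 2-fold, against 171 at an unadjusted p under 0.05.

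The diets were compared in fresh and preserved libraries separately, with 2 animals each, and both comparisons use the same 4 animals. In fresh members 17 of 5437 genes were called (0.313%), 13 higher in PC (0.239%) and 4 lower (0.0736%). Fabp4, a fatty acid carrier, stood at 0.838 and 5.60 CPM in NC1 and NC2 and at 433 and 441 CPM in PC1 and PC2, a log2 difference of 7.11 ± 0.38 (edgeR, adjusted p = 4e-05). Apoe, the lipid transport protein, stood at 40.2 and 5.60 against 381 and 566 CPM, with 4.21 ± 0.49 (edgeR, adjusted p = 0.0051). Both PC animals stood above both NC animals, and so it was for the other genes of lipid-handling macrophages that were called, Spp1, Trem2, Lpl and Gpnmb. In the empty droplets Fabp4 was at 56.8 and 28.9 CPM in the NC and 756 and 760 CPM in the PC libraries, above the members in all 4. In the other barcodes the Fabp4 difference was 6.91. The lysosomal membrane protein Cd63 stood at 63.7 and 87.4 against 416 and 331 CPM, with 2.28 ± 0.22 (edgeR, adjusted p = 0.002). Fcgr3a, an Fc receptor of myeloid and natural killer cells, was lower in PC at 217 and 338 against 99.3 and 56.3 CPM. Among the other called genes, RGD1562667, RGD1561778 and Pld3 were higher in PC by 4.33, 4.23 and 2.43 on the log2 scale, and AABR07060872.1 and Slfn4 differed by -1.46 and -1.15. Hdc, which makes histamine, was also called lower, on 35 and 29 UMIs in NC and 0 and 1 in PC. In members with 5 or more Cd3 UMIs, Fcgr3a (-0.99), Gpnmb (1.75), Slfn4 (-0.62) and Lpl (3.63) were not called (edgeR, adjusted p = 0.416, 0.308, 0.426 and 0.181), nor were Ctsd and Fabp5, and Trem2, Pld3, RGD1561778 and Hdc were too low to be tested.

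Of the effector genes, Ccl5 passed the adjusted p in fresh members. It stood at 10548 and 9706 CPM in NC1 and NC2 and at 5995 and 4733 CPM in PC1 and PC2, without overlap. The log2 difference was -0.96 ± 0.11 (edgeR, adjusted p = 0.0051), just short of 2-fold, and -0.82 with at least 5 Cd3 UMIs (edgeR, adjusted p = 0.015). In the other barcodes the Ccl5 difference was -0.20. At the adjusted p alone 0.368% of genes passed. In preserved members the Ccl5 difference was -0.67 and did not pass (edgeR, adjusted p = 0.18). Of the co-stimulation and checkpoint list, edgeR called 0 of 10 genes in fresh members, and 0 at an unadjusted p under 0.05.

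In preserved members 35 of 4887 genes were called (0.716%), 20 higher in PC (0.409%) and 15 lower (0.307%), and 14 were shared with the 17 of the fresh comparison, 82.4% of those and 40% of these. Receptors of activated T cells were among the genes higher in PC. Tnfrsf4 stood at 11.5 and 11.3 CPM in NC1 and NC2 and at 96.1 and 101.1 CPM in PC1 and PC2. The PC values were far above the NC values and above the empty droplets, which held 4.15, 7.48, 27.3 and 20.8 CPM. The log2 difference was 3.01 ± 0.30 (edgeR, adjusted p = 0.00061), and 2.99 with at least 5 Cd3 UMIs. With at least 8 it was 2.09 and missed the threshold (edgeR, adjusted p = 0.0655).

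Tnfrsf9 stood at 28.8 and 9.46 CPM in NC1 and NC2 and at 126 and 149 CPM in PC1 and PC2, with empty droplets at 13.8, 17.7, 33.1 and 40.9 CPM. The diets did not overlap, with a log2 difference of 2.81 ± 0.36 (edgeR, adjusted p = 0.0044). Icos stood at 35.7 and 32.2 against 83.4 and 131 CPM, with empty droplets at 14.6 to 30.0 CPM, and differed by 1.56 ± 0.26 (edgeR, adjusted p = 0.023). Pdcd1, the inhibitory receptor PD-1, stood at 15.0 and 17.02 against 50.6 and 71.4 CPM and differed by 1.81 ± 0.34 (edgeR, adjusted p = 0.039). Each was higher in both PC animals. Icos was lost without PC2 (1.27, edgeR, adjusted p = 0.105), at 1000 UMIs (edgeR, adjusted p = 0.0984), at 8 or more Cd3 UMIs (edgeR, adjusted p = 0.0514) and by DESeq2 (adjusted p = 0.105). Pdcd1 was lost without PC2 (edgeR, adjusted p = 0.132), without NC1 (edgeR, adjusted p = 0.0611), at 1000 UMIs (edgeR, adjusted p = 0.0852), at 5 or more Cd3 UMIs (1.56, edgeR, adjusted p = 0.163), at 8 or more (edgeR, adjusted p = 0.167) and by DESeq2 (adjusted p = 0.260).

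These 4 were all the genes that passed of the 11 tested in the co-stimulation and checkpoint list, whose median difference was 0.23 against 0.00 for all genes. Izumo1r, a folate receptor family gene known from regulatory T cells, was also called (3.52 ± 0.65, edgeR, adjusted p = 0.037) on 3 and 1 UMIs in NC and 12 and 8 in PC, and most alternatives lost the call. In the other barcodes of the preserved libraries the differences were 1.03 for Tnfrsf4, 1.56 for Tnfrsf9, -0.15 for Icos and 0.10 for Pdcd1, and the difference from the members was not tested. In fresh members the differences were smaller, 0.89 ± 0.40 for Tnfrsf4, at 26.8 and 13.4 against 33.7 and 49.7 CPM, and 0.04 for Tnfrsf9, at 32.7 and 25.8 against 20.2 and 49.7 CPM, and neither passed. The difference between the 2 conditions was 2.05 ± 0.52 for Tnfrsf4 and was not called (edgeR interaction term, adjusted p = 0.447).

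The values came from few barcodes. In preserved NC1, NC2, PC1 and PC2, 7, 9, 10 and 10 members held a Tnfrsf4 UMI, 14, 4, 14 and 12 held one of Tnfrsf9, and 26, 26, 23 and 20 held one of Icos. Without the barcode richest in it, Tnfrsf4 still stood at 77.0 and 74.6 CPM in PC1 and PC2, and Tnfrsf9 at 96.3 and 62.7 CPM. Over all libraries, 65 members held a Tnfrsf4 UMI, at a median of 3917 UMIs against 3933 in the other members, whereas in the preserved PC libraries the 20 with Tnfrsf4 had a median of 2277 UMIs against 4288.5 in the other 122. Foxp3, the defining factor of regulatory T cells, was found in 30.8% of them against 1.78% of the other members and 0 of the 588 B cell barcodes, at a median of 2780 UMIs, which allows up to 0.510% of such barcodes with a Foxp3 UMI. Tnfrsf9 was found in 47.7% against 4.80%, Ctla4, an inhibitory receptor, in 18.5% against 1.60%, and Cd8b in 15.4% against 34.1%. Cd4 was found in 4.62% against 5.51%, 3 of 65 and 62 of 1126. This is a description over barcodes, which are not replicates.

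**Figure D5:**
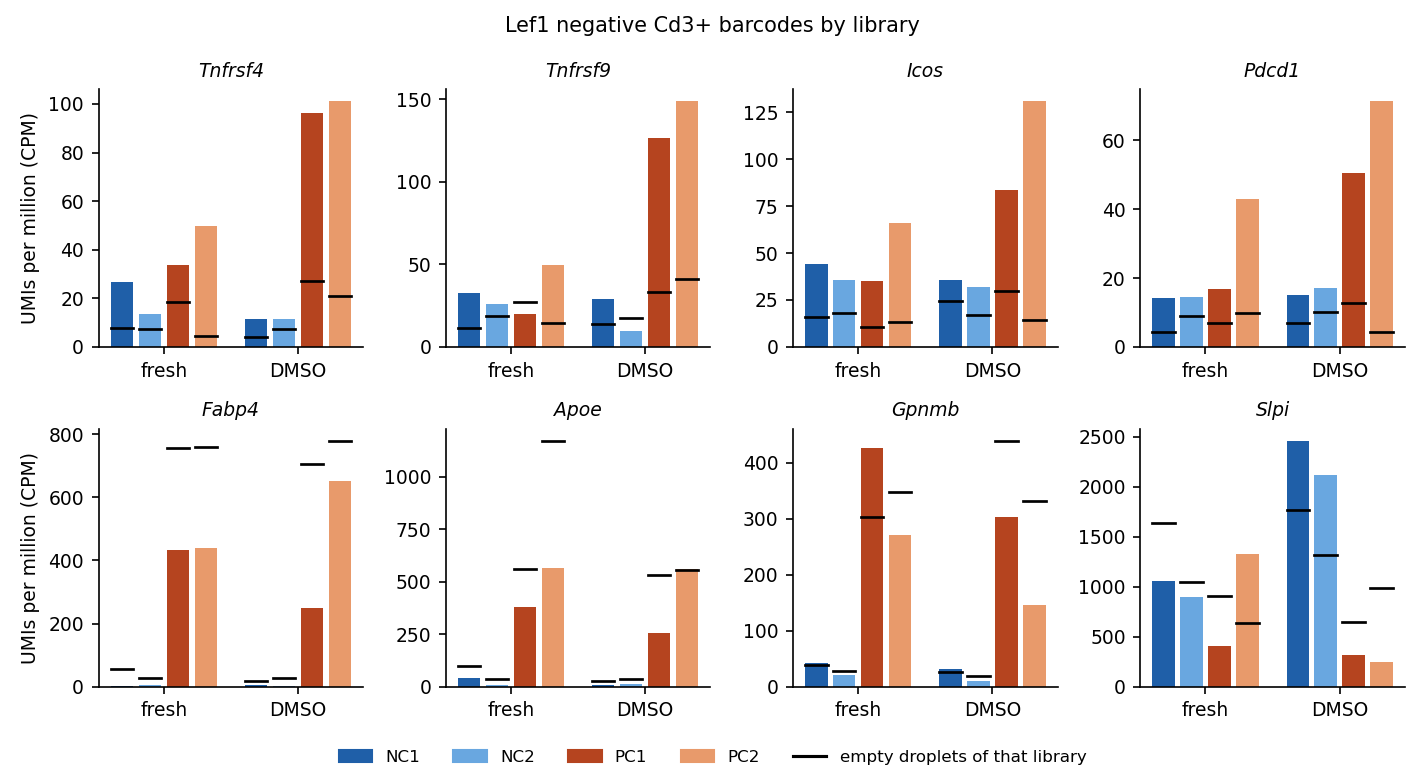
CPM of 8 genes (vertical axes) in the summed Lef1 negative Cd3+ barcodes of each library, as bars grouped by fresh and DMSO, with the level in empty droplets of that library as a black line. Tnfrsf4, Tnfrsf9, Icos and Pdcd1 of preserved PC1 and PC2 stood above their empty droplets and above both NC animals, while Fabp4 lay under the empty droplets in all 8 libraries.

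Other genes called in preserved members included several known from macrophages. Spp1 (osteopontin) was at 0 in both NC sums and at 98.6 and 253 CPM in PC1 and PC2, at least 109-fold higher against a floor of 3 counts over the NC group. Mmp12, a macrophage elastase, was likewise at 0 in both NC sums and at 30.3 and 44.6 CPM, at least 23.7-fold higher. Fabp4 stood at 5.76 and 2.84 against 250 and 651 CPM. Slpi, an antiprotease, was lower in PC, at 2459 and 2117 against 319 and 250 CPM, a log2 difference of -3.07 ± 0.19 (edgeR, adjusted p = 5.7e-05), and its empty droplets followed the same order of diets. Among the remaining lower genes were the chemokines Ccl2 (-2.89), Cxcl2 (-4.09) and Ccl24 (-2.49), Prg4 (-2.85), Ube2s (-2.21), Fcgr3a (-1.96) and Scand1 (-1.75). Cxcl1 was called on 178 and 96 UMIs in NC and 0 and 1 in PC, and the complement gene C6 on 23 and 35 UMIs in NC and 0 in both PC sums. At 5 or more Cd3 UMIs, Ccl2 (-1.77), Fcgr3a (-1.10) and Scand1 (-1.59) were not called (edgeR, adjusted p = 0.126, 0.469 and 0.197), and Mmp12, Cxcl1, Cxcl2, Ccl24, C6, Prg4 and Izumo1r were too low to be tested. Prg4 was lost when any one of the 4 animals was left out (edgeR, adjusted p = 0.0521 to 0.127), by DESeq2 and without the highest Scrublet scores.

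Interferon-stimulated genes, the antiviral programme induced by interferon, had list medians below 0 in PC against NC, and none (0) passed the test. By edgeR 0 of 12 were called in either condition, with 6 lower at an unadjusted p under 0.05 in fresh and 7 in preserved members and list medians of -0.71 and -0.89 against -0.01 and 0.00 for all genes. Over all genes tested, 520 of 5437 in fresh and 472 of 4887 in preserved members had an unadjusted p under 0.05 in either direction. In the other barcodes of the fresh libraries the interferon list median was -0.66, with 8 of 13 genes lower at an unadjusted p under 0.05 by edgeR. The list summed to 1647, 1018, 702 and 649 CPM in the fresh members of NC1, NC2, PC1 and PC2. Isg15, a ubiquitin-like antiviral protein, stood at 116 and 176 CPM in fresh NC1 and NC2 and at 75.8 and 76.2 CPM in PC1 and PC2, a difference of -0.98 ± 0.27 (edgeR, adjusted p = 0.276), and the other barcodes differed by -0.67. The immediate early list had medians of -0.68 and -0.59 in fresh and preserved members, with 8 of 22 and 12 of 23 genes lower at an unadjusted p under 0.05 and 0 called by edgeR in either. Of the T cell receptor list 0 of 13 passed in either condition, with 2 lower at an unadjusted p under 0.05 in each and medians of -0.21 and -0.19. With at least 5 Cd3 UMIs the fresh and preserved medians were -0.20 and -0.73 for the interferon list, with 3 of 7 and 3 of 9 genes lower at an unadjusted p under 0.05. They were -0.34 and -0.38 for the immediate early list, with 3 of 16 and 6 of 22 lower and 1 and 0 higher at that p, and 0.01 and -0.09 for the T cell receptor list, with 0 and 1 of 13 lower. By edgeR 0 genes of these 3 lists were called in either condition.

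Preservation responses were compared between the diets with an interaction term, and 3 of 5171 genes were called (0.058%). Tnfrsf9 was higher after preservation in both PC animals and lower in both NC animals, the responses differing by 2.72 ± 0.50 on the log2 scale (edgeR, adjusted p = 0.0376) and by 2.84 with at least 5 Cd3 UMIs (edgeR, adjusted p = 0.0411). The call was lost without PC1 (edgeR, adjusted p = 0.169), without PC2 (edgeR, adjusted p = 0.178) and with DESeq2 size factors (edgeR, adjusted p = 0.0570). Slpi differed by -2.64, rising in NC and falling in PC, by -1.56 without PC2 and -3.73 without PC1, and by -1.17 with no call at 5 or more Cd3 UMIs (edgeR, adjusted p = 0.464). Hba-a2, a haemoglobin gene, differed by -3.33, and its call was lost without PC2. In a sum over barcodes, fewer cells with a gene and less of its RNA per cell cannot be told apart.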

How the data were processed

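Counts of UMIs per gene and barcode were deposited by the authors for 8 libraries of 10x Chromium 3' RNA. The submitters' processing notes name Cell Ranger 2.1.1, STAR and bcl2fastq 2.17.1.14, and the study's methods name the Rnor6.0 genome with Ensembl annotation. No normalization was applied in the deposited counts, and the matrices hold all barcodes, including empty droplets.

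Members were found by the rule given in the report, in Python 3.11.15 (numpy 2.4.6, pandas 2.3.3, scipy 1.17.1), and their UMIs were summed per library. Sums held 301906 to 1193164 UMIs. CPM divides by the sum's own UMIs. edgeR 4.0.16 in R 4.3.3 fitted TMM-normalized sums of genes passing filterByExpr with the quasi-likelihood test and Benjamini-Hochberg adjustment over all genes tested. A gene was called at an adjusted p under 0.05 and a change of at least 2-fold. Preservation was fitted with the animal as a block, since the fresh and preserved library of an animal come from the same liver. Their deviations correlated across genes with r = 0.44, 0.40, 0.24 and 0.36 in NC1, NC2, PC1 and PC2. Diets were fitted in fresh and preserved libraries separately, without a block. Differences of response were fitted as interaction terms. Shares were compared with exact permutation tests, and their binomial intervals are Clopper-Pearson. Genes of the rule and Mt- symbols were left out of the calls. The fits were tested on simulated data.

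Named genes were the 10 called genes with the largest change in each direction that moved the same way in every animal, list members that passed, and the list members with the most UMIs. Other names were chosen after their values were seen. The members, the 16 gene lists and the tests were chosen with earlier results of these data known. Doublets were scored with Scrublet in scanpy 1.11.5 and kept, and leaving them out was an alternative. Others were UMI, Mt- and Cd3 limits, thinning to 1000 UMIs, low count filters, DESeq2 1.42.0 and its size factors, leaving out an animal, and the block. Promoter sequences came from RefSeq on build GRCr8.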

Additional observations from a re-analysis of the deposited data

Results flagged for a closer look

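Preservation responses that differed between groups by the test of the difference itself (edgeR, adjusted p under 0.05 and at least 2-fold) were those named here, and their causes were not tested. Between the diets, PC minus NC, they were Tnfrsf9 at 2.72, Slpi at -2.64 and Hba-a2 at -3.33 on the log2 scale. Tnfrsf9 stood above the empty droplets of both preserved PC libraries, and Hba-a2 is a haemoglobin gene.

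Between the Lef1 negative Cd3+ barcodes and the other barcodes, the preserved minus fresh change was more positive in the members for 7 genes, Cxcl11 at 2.25, Cxcl1 at 1.54, Prg4 at 1.39, Lyve1 at 1.28, AABR07027752.2 at 1.27, LOC100359539 at 1.18 and Cxcl2 at 1.13. It was more negative in the members for Car1 at -4.44, C1qc at -1.16, Il18bp at -1.12 and Rarres1 at -1.04, of which C1qc fell in the members of all 4 animals. Each of these 11 lost its call when a certain animal was left out. Without NC1 these were Cxcl1 (0.93), Lyve1 (0.72), AABR07027752.2 (0.98), LOC100359539 (0.76), Prg4 (1.54), Cxcl2 (1.53) and Rarres1 (-1.07). Without NC2 they were Cxcl11 (-1.34), Prg4 (1.07), Cxcl2 (0.79), Il18bp (-0.64) and C1qc, the last only by its size (-0.85). Without PC1 they were Il18bp (-0.65) and Rarres1 (-0.61), and without PC2 it was Car1 (-1.97). Without NC2, Rarres1 was called at -1.74 and Car1 at -11.8. Cxcl11 rested on the preserved NC2 library and Car1 on the fresh PC2 library. Between Lef1 negative and Lef1 positive barcodes they were Fabp4 at 1.70, Ccl2 at -1.05 and Egr2 at -2.999. Fabp4 was lost without PC1 (0.71), whose fresh Lef1 positive sum held 1879 CPM against 300.4 CPM in PC2, and without NC1 (1.66). Ccl2 was lost without NC1 (-0.33) and without NC2 (-1.26), and Egr2 did not pass the filter on low counts when NC1 or NC2 was left out.

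The preservation change of LOC100359539 in NC1, 2.30 on the log2(CPM + 1) scale, lay far from those of the other 3 animals at 1.13, 1.10 and 0.91. Chance alone marks about 1 in 20 groups in this way.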

How the results depend on the processing

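Of 978 values of single genes recomputed under the alternatives, 791 kept their direction and side of the threshold, 181 missed it and 6 reversed. Fos, Fosb, Jun, Dusp1, Ppp1r15a, Klf6 and Ccl3 passed for preservation in every alternative run. At 5 or more Cd3 UMIs the differences in response to preservation from the other barcodes reversed to -0.26 for Prg4, 0.80 for Rarres1, 3.13 for Car1 and -1.61 for Cxcl11, and that of Ccl2 from the Lef1 positive barcodes to 0.017. With one animal left out that of Cxcl11 was -1.34 (without NC2) to 2.52. The causes were not tested.

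The 29 genes called for preservation became 114 with no fold minimum, 77 with no filter on low counts, 9 with at least 10 counts in every sum, 13 with DESeq2, 17 and 16 at 5 and 8 Cd3 UMIs, and 15 (without NC2) to 46 (without NC1) with one animal left out. The fresh diet count of 17 became 110 with no filter, 4 with at least 10 counts, 8 at 5 Cd3 UMIs, and 5 (without PC1) to 114 (without NC2), with 9 without PC2 and 75 without NC1. The preserved diet count of 35 became 125 with no filter, 22 with at least 10 counts, 22 at 5 Cd3 UMIs, and 38 to 101 (without NC2), with 57 without NC1 and 62 without PC1. Where an animal was left out, the lone sample of its diet was assumed to vary like the other diet. The 3 genes differing between the diets became 13 with no filter, 7 at 5 Cd3 UMIs and 1 (without PC2) to 32 (without NC2). The 11 differing from the other barcodes became 43 with no fold minimum, 1 with at least 10 counts, 3 at 5 Cd3 UMIs and 8 to 19 (without PC2). The 3 differing from Lef1 positive barcodes became 6 with no fold minimum, 7 with no filter, 0 with at least 10 counts by edgeR, 0 at 5 Cd3 UMIs, and 0 (without NC1) to 5 (without PC1 or PC2).

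Without the replicate block, 9 genes were called for preservation, and Junb, Zfp36 and Mcpt8l3 were lost among others. Gzma and Cd6, which changed by less than 2-fold, no longer passed the adjusted p. With the NC and PC numbers as a block, 43 and 118 genes were called for the diet in fresh and preserved members, but those numbers pair nothing, as same-numbered animals correlated at -0.02 and 0.03.

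The Lef1 negative share of Cd3+ barcodes, 1.13 percentage points higher after preservation, turned to -0.46 at 1000 UMIs, -0.79 with 2 Cd3 UMIs and -0.23 under 10% Mt-. It was 3.62 with at least 5 Cd3 UMIs, higher in 3 of 4 animals, and 1.23 with at least 8. With one animal left out it ran from -0.76 (without NC2) to 1.95. The Cd8 share difference of -0.43 became 0 at 2 co-receptor UMIs, 0.69 after thinning, and -0.89 to 0.23 (without PC1) with one animal left out. A comparison of Cd8 with Cd4 members (12 Cd4 only) and one without members holding myeloid or B cell markers were not run, since too few members were left per library. The sums of PC2, the smallest, limit the depth of low genes.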
